A study of Mus musculus with 8 samples.

Results

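Fbn2, Thsd4, Col11a1, Col27a1 and Cthrc1 are genes of the fibres of the extracellular matrix, chosen by their names from a deposited table of 1329 genes. They were measured by poly-A RNA sequencing of the ascending aorta in Fbn1mgR/mgR mice. All mice carried this genotype, which lowers expression of fibrillin-1 and serves as a model of Marfan syndrome. No group of mice with normal fibrillin-1 was analysed here. The 4 DT-061 libraries came from mice given this small-molecule activator of protein phosphatase 2A by mouth at 5 mg/kg, with 2 doses daily over 4 weeks that began when the mice were 5 weeks old. The 4 vehicle libraries came from mice given the solvent on the same schedule. The labels do not say that each library came from a separate mouse, so the p-values rest on a spread between samples that may be technical.

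The name of the deposited table marks its genes as significant between the groups, so every gene named here had already been chosen on the comparison that is described. Its p-values are therefore not independent evidence. Of the 1329 genes, limma called 95.4% at an adjusted p under 0.05, with 30.4% rising and 65.0% falling with DT-061. Rises were thus 31.9% of the calls. They were 59.0% when each library was divided by its median FPKM over the table (median rescaling), and 65.3% when all libraries were given the same distribution of values (quantile normalization). Both rescalings used only these chosen genes, most of which fell. They therefore moved changes upward and cannot show which scaling is right. In 78.3% of the genes the groups did not overlap. Fbn1 itself was not analysed here. The libraries held 14100000 to 22200000 fragments each, recovered from the steps between low values. Contractile smooth muscle markers, which define the tissue, had 19 of 39 listed genes in the table and a summed level of 12840 to 34500 FPKM (fragments scaled to gene length and to library size). No listed marker of cardiac and skeletal muscle, of 21, was among the genes analysed. DT-061 library 3 and vehicle library 4 stood apart from the rest of their groups in several of the results below, and the results that rest on them are also given without them.

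Fibrillins are large glycoproteins that polymerise into microfibrils, the scaffold on which elastin is laid down in the aortic media and which also holds latent TGF-β. Fibrillin-1 is the main fibrillin of the adult vessel, and fibrillin-2, encoded by Fbn2, is made mostly during development. Thsd4 encodes ADAMTSL6, a secreted protein that binds fibrillin-1 and promotes microfibril assembly. Fibrillar collagens give the wall tensile strength. Col11a1 encodes a chain of type XI collagen, a minor fibrillar collagen that helps to set fibril diameter, best known from cartilage. Col27a1 encodes the chain of type XXVII collagen, another fibrillar collagen of cartilage and developing tissue. Cthrc1 encodes a secreted glycoprotein with a short collagen-like stretch that is made by activated fibroblasts and in injured arteries.

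All 5 were protein coding genes, placed here on GRCm38 with GENCODE M21. The position of Fbn2 is given with its values. Thsd4 (ENSMUSG00000032289) lies on chromosome 9, from 59966931 to 60522046. Col11a1 (ENSMUSG00000027966) lies on chromosome 3, from 114030540 to 114220718. Col27a1 (ENSMUSG00000045672) lies on chromosome 4, from 63214004 to 63334991, and holds the microRNA gene Mir455 on its own strand. Cthrc1 (ENSMUSG00000054196) lies on chromosome 15, from 39076932 to 39087121. On the opposite strand, Fbn2 is overlapped by the non-coding gene Gm26507 and Thsd4 by the antisense gene 2010001M07Rik. Thsd4 is also overlapped by Gm22099 on the opposite strand and by Gm23668 and Gm47676 on its own strand. These overlaps are of whole gene spans, and overlap of exons was not examined. The sources used here do not state whether counting used strand. It is therefore not known whether reads of these partners were counted with Fbn2 or Thsd4.

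The feature that gives collagens their triple helix is the repeated triplet that opens with glycine, whose codons are GGN. In the longest coding sequence of each gene, the longest unbroken run of such triplets was 338 in Col11a1, 217 in Col27a1 and 12 in Cthrc1. It was 4 in Thsd4 and 3 in Fbn2. A run of at least 12 was found in 0.404% of 21794 genes with a coding sequence, and Col11a1 and Col27a1 ranked 5 and 10 among them. The 12 triplets of Cthrc1, codons 60 to 95, are shown because they are what ties this gene to the collagens. The glycine codons are in capitals, 5′ to 3′, from the GENCODE M21 transcript on GRCm38.
Cthrc1: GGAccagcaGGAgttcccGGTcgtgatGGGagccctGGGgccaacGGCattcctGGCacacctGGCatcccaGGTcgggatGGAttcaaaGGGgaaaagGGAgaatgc

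Fbn2 was nearly silent in the DT-061 aortas and in 1 of the vehicle aortas. Its level was 0.0266, 0.0244, 0.0197 and 0.0583 FPKM in DT-061 libraries 1 to 4, and 0.360, 0.486, 0.284 and 0.0203 FPKM in vehicle libraries 1 to 4. Vehicle library 4 thus stood inside the DT-061 range and the groups overlapped, while vehicle libraries 1 to 3 were all higher than every DT-061 library. The depth shows how few molecules this rests on. With a gene length of 10482 bases, fitted to these 8 values, all of them lay within 0.012 of a whole number of fragments. They corresponded to 4, 4, 3 and 9 fragments with DT-061. With vehicle they corresponded to 61, 113, 52 and 3 fragments. The exact Poisson 95% interval was 0.619 to 8.77 for 3 fragments and 38.8 to 68.2 for 52, and covers counting error only, since PCR reads without molecular identifiers are not independent molecules.

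Fbn2 (ENSMUSG00000024598) lies on chromosome 18, from 58008623 to 58210487 (GRCm38). Its group means were 0.287 ± 0.197 FPKM in the vehicle group and 0.0323 ± 0.0176 in the DT-061 group (SD, n = 4), the latter 8.91-fold lower. It was 11.7-fold lower when vehicle library 4 was left out. On the log2(FPKM + 1) scale, which compresses values under 1, the change was only -0.31 ± 0.11 (SE; limma adjusted p = 0.030). With a pseudocount of 0.1 it was -1.35. The call ended when any single library other than vehicle library 4 was left out, at limma adjusted p of 0.052 to 0.070, and it had an adjusted p of 0.0037 without vehicle library 4. With quantile normalization the sign turned, to 0.079, so that no direction independent of the scaling can be given for this gene. That scaling used only the chosen genes, most of which fell, and cannot show which sign is right.

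Thsd4 was the most abundant of the 5 genes and was higher with DT-061. Its level was 60.5, 60.8, 67.3 and 61.6 FPKM in DT-061 libraries 1 to 4, and 31.9, 52.3, 42.4 and 49.5 FPKM in vehicle libraries 1 to 4. The groups did not overlap, and the spread was narrower with DT-061, where the SD was 5.11% of the mean against 20.7% with vehicle. The means were 62.5 ± 3.19 and 44.0 ± 9.10 FPKM (SD, n = 4), 1.42-fold higher with DT-061. The log2 change was 0.52 ± 0.15 (SE; limma adjusted p = 0.019). Vehicle library 1 was the lowest, and without it the change was 0.38. With quantile normalization Thsd4 kept its direction, at 0.54, but not its call (limma adjusted p = 0.057). With the median rescaling it was 1.35 (limma adjusted p = 0.0064).

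**Figure D1:**
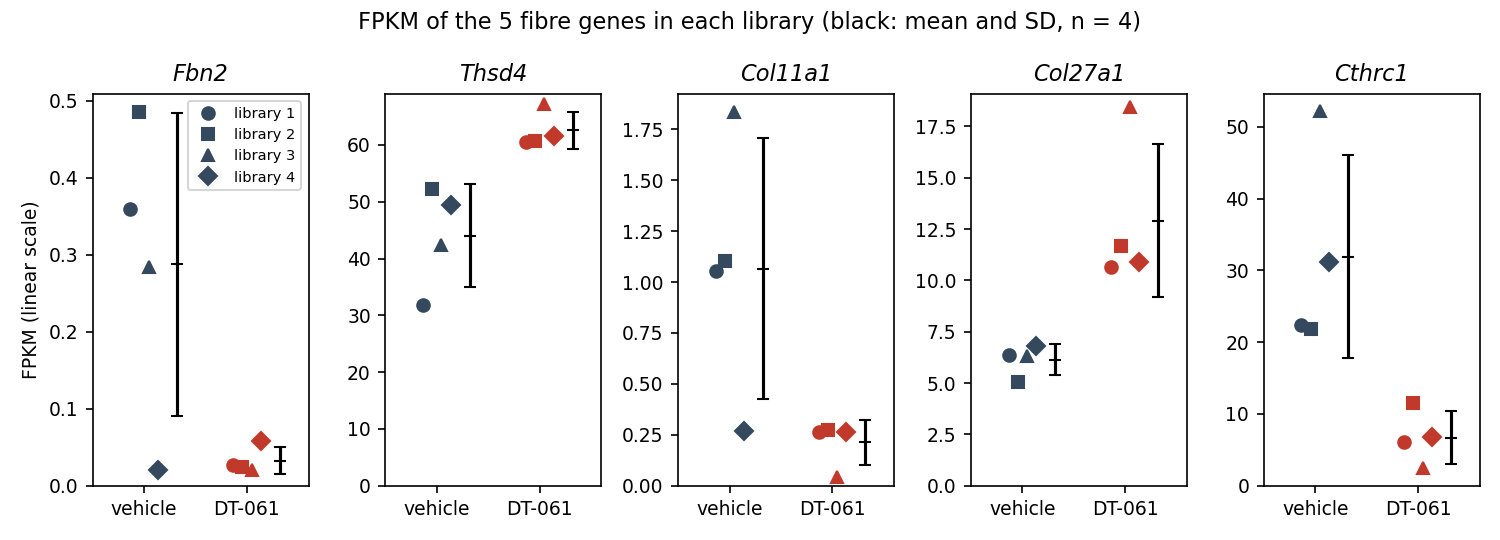
Each panel plots the FPKM of 1 gene (linear axis from 0) in the 4 vehicle and 4 DT-061 libraries, with marker shapes for library numbers and black bars for the mean and SD (n = 4). Vehicle library 4 (diamond) lies with the DT-061 libraries for Fbn2 and Col11a1 but with the other vehicle libraries for Thsd4, Col27a1 and Cthrc1, and DT-061 library 3 (triangle) is highest for Col27a1, at 18.4 FPKM.

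The collagen genes moved in opposite directions. Col11a1 was at 0.263, 0.275, 0.0449 and 0.266 FPKM in DT-061 libraries 1 to 4, and at 1.06, 1.10, 1.84 and 0.268 FPKM in vehicle libraries 1 to 4. As with Fbn2, vehicle libraries 1 to 3 were above every DT-061 library, while vehicle library 4 lay within the DT-061 range, so the groups overlapped. With a gene length of 7667 bases, fitted to the 5 lowest values, these corresponded to about 29, 33, 5 and 30 fragments with DT-061 and about 131, 188, 246 and 29 with vehicle. The values of vehicle libraries 2 and 3, at 187.95 and 245.93 steps, were not whole to within 0.03.

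The means of Col11a1 were 0.212 ± 0.112 and 1.07 ± 0.641 FPKM (SD, n = 4), so that it was 5.02-fold lower with DT-061, and 6.27-fold lower without vehicle library 4. The log2 change was -0.72 ± 0.23 (SE; limma adjusted p = 0.022), and -1.77 with a pseudocount of 0.1. The gene fell by this test, but its call ended without DT-061 library 3, the lowest of all 8 libraries, at limma adjusted p = 0.053. With quantile normalization the change was -0.033 (limma adjusted p = 0.87), and with the median rescaling it was -0.44 (limma adjusted p = 0.0499). Both the size of the change and the call thus depend on the scaling.

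Col27a1 was higher in each DT-061 library than in any vehicle library. It was at 10.6, 11.7, 18.4 and 10.9 FPKM in DT-061 libraries 1 to 4, and at 6.36, 5.05, 6.33 and 6.80 FPKM in vehicle libraries 1 to 4. DT-061 library 3 exceeded the other DT-061 libraries, which lay within 10.6 to 11.7 FPKM. The means were 12.9 ± 3.70 and 6.14 ± 0.756 FPKM (SD, n = 4), 2.10-fold higher with DT-061 and 1.81-fold higher without DT-061 library 3. The log2 change was 0.94 ± 0.18 (SE; limma adjusted p = 0.014), the 15th largest of the 435 genes that were higher with DT-061. By the fold of means Col27a1 ranked 36 among them. The log2 change was 1.69 with the median rescaling.

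Cthrc1 had the largest change of the 5 genes on the log2(FPKM + 1) scale, though Fbn2 and Col11a1 had larger folds of means. It was at 6.10, 11.5, 2.43 and 6.77 FPKM in DT-061 libraries 1 to 4, and at 22.4, 21.9, 52.2 and 31.2 FPKM in vehicle libraries 1 to 4. The groups did not overlap, and vehicle library 4, which resembled the DT-061 libraries for Fbn2 and Col11a1, had the second highest value for Cthrc1. The means were 6.70 ± 3.72 and 31.9 ± 14.2 FPKM (SD, n = 4), 4.77-fold lower with DT-061 and 3.93-fold lower without DT-061 library 3, the lowest. The log2 change was -2.15 ± 0.42 (SE; limma adjusted p = 0.014), ranked 45 by size among the 894 genes that were lower. By the fold of means it ranked 244 among them. With the median rescaling it was -1.39 (limma adjusted p = 0.013).

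In all, 2 of the 5 genes rose and 3 fell, against 95.4% of the table called in either direction, so this count is near that of any genes drawn from the table. No overlap between the groups was seen in 3 of the 5, against 78.3% of the table. These were Thsd4 and Col27a1, higher with DT-061 as in 30.1% of the table, and Cthrc1, lower as in 48.2%. The median change of the 5 genes was -0.31, against -0.58 over all 1329 genes. With the median rescaling, which moved the changes of all genes by a median of 0.68, Thsd4 and Col27a1 stood 1.48 and 1.81 above the table's median, and Cthrc1 stood 1.26 below it (differences of log2 changes). With quantile normalization, which moved them by a median of 0.56, Thsd4 and Col27a1 stood 0.49 and 1.41 above that median, and Cthrc1 was at -1.82 from it. Fbn2 and Col11a1 were at 0.03 and -0.08 from it.

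**Figure D2:**
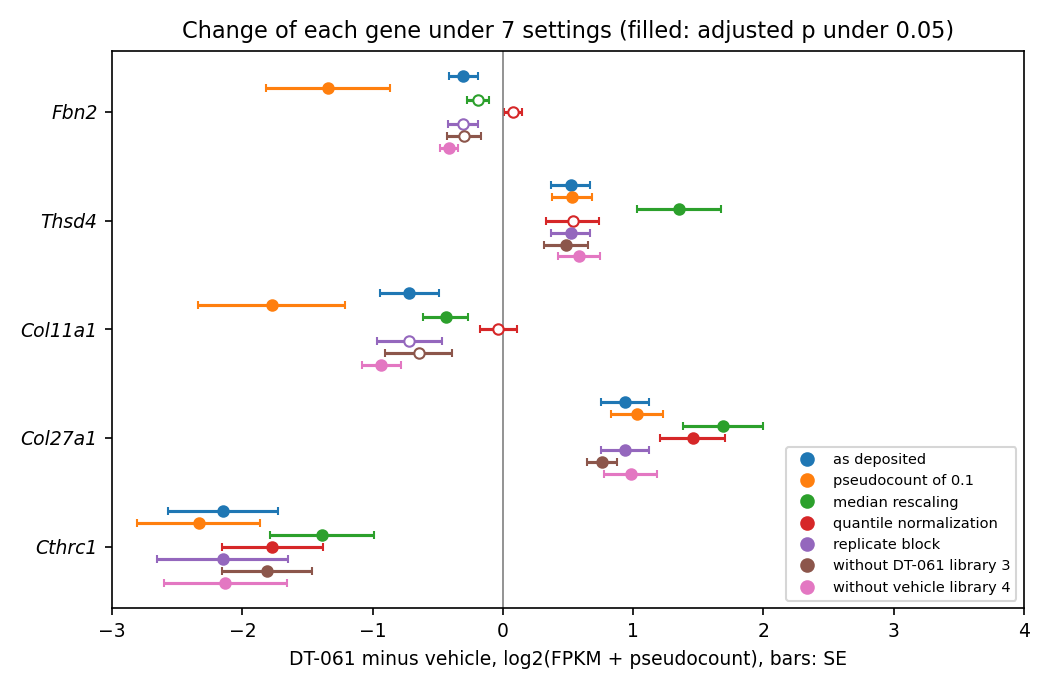
The horizontal axis is the DT-061 minus vehicle difference of log2(FPKM + pseudocount), with SE bars, for each gene under 7 settings, and filled markers have a limma adjusted p under 0.05. Col27a1 stays right of 0 and Cthrc1 left of 0 with filled markers throughout, while Fbn2 runs from -1.35 to 0.079.

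A ratio of genes within a library does not depend on how the libraries were scaled to each other. Because FPKM is scaled to gene length, levels of different genes can also be ordered, as far as the authors' gene lengths hold. In every vehicle library Cthrc1 was above Col27a1, with a Col27a1 to Cthrc1 ratio of FPKM of 0.284, 0.231, 0.121 and 0.218 in libraries 1 to 4. In every DT-061 library the order was the other way, with ratios of 1.74, 1.02, 7.59 and 1.61. The groups could not overlap in this ratio, since Col27a1 was higher and Cthrc1 lower in every DT-061 library than in any vehicle library. It therefore adds no separate result to the values of the single genes. DT-061 library 2 had near equal levels. The Col27a1 to Col11a1 ratio was 40.4, 42.4, 410.1 and 41.0 with DT-061 and 6.03, 4.57, 3.45 and 25.4 with vehicle. It too did not overlap, and vehicle library 4 came closest to the DT-061 libraries. The Thsd4 to Col27a1 ratio, between the genes that rose, was 3.65 to 5.69 with DT-061 and 5.01 to 10.4 with vehicle, and the groups overlapped.

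The order of levels with DT-061 was Thsd4, Col27a1, Cthrc1, Col11a1 and Fbn2. The ranges of Col27a1 (10.6 to 18.4 FPKM) and Cthrc1 (2.43 to 11.5 FPKM) overlapped there, and so did those of Col11a1 (0.0449 to 0.275) and Fbn2 (0.0197 to 0.0583). With vehicle, Thsd4 and Cthrc1 came first with overlapping ranges (31.9 to 52.3 and 21.9 to 52.2 FPKM), followed by Col27a1 (5.05 to 6.80 FPKM). Col11a1 (0.268 to 1.84 FPKM) and Fbn2 (0.0203 to 0.486 FPKM) came last and overlapped.

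**Figure D3:**
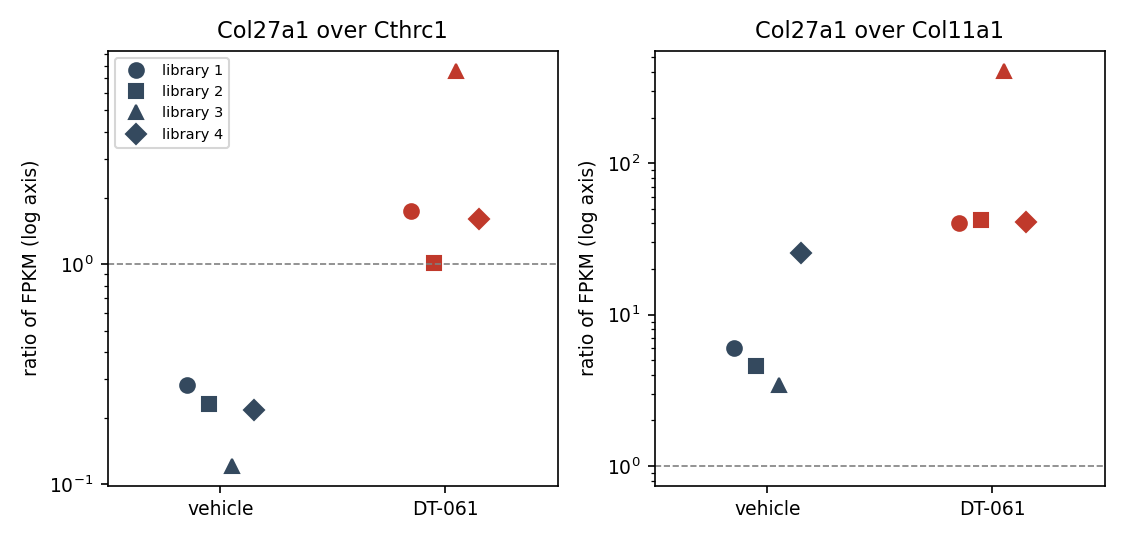
Points are single libraries and show the ratio of FPKM of Col27a1 to Cthrc1 (left) and to Col11a1 (right) on log axes, by treatment, with a dashed line at equal levels. In the left panel the 4 DT-061 libraries lie at 1.02 to 7.59, above the line, and the 4 vehicle libraries at 0.121 to 0.284, below it.

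The other matrix genes were taken from lists of known members. Of 36 elastic fibre and microfibril genes, 5 were in the table, of which 4 rose and 1, Fbn2, fell. Their median change was 0.50 against -0.58 over all genes. Both the count and the median include Thsd4 and Fbn2 themselves. Adamtsl5, a relative of Thsd4 in the ADAMTS-like family, rose by 0.44, from 62.9 ± 9.91 FPKM with vehicle to 84.7 ± 0.433 (SD, n = 4). The integrin genes Itga8 and Itgb3, subunits of receptors that bind fibrillin and other matrix proteins, rose by 0.65 and 0.50 on the log2 scale. Itga8 is also in the contractile smooth muscle list. Adamtsl5 did not keep its call with quantile normalization (limma adjusted p = 0.062).

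Of 44 collagen chain genes, only Col11a1 and Col27a1 were in the table, and the other chains were not analysed here. Of 36 genes of collagen synthesis and crosslinking, 2 were in it. Tgm2, a transglutaminase that crosslinks matrix proteins, rose by 0.33, from 114.1 ± 12.9 to 143.0 ± 9.26 FPKM (SD, n = 4). Its call ended without vehicle library 3 (limma adjusted p = 0.052). Tll2, a protease of the family that trims procollagen, fell by 0.51 and was low, at 0.131 ± 0.0880 FPKM with DT-061 and 0.622 ± 0.198 with vehicle. Its change was -0.01 with quantile normalization (limma adjusted p = 0.97) and -0.34 with the median rescaling.

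Of 47 collagen-associated and fibril-binding genes, 9 were in the table, of which 4 rose and 5 fell, with a median change of -0.33. Cthrc1 had the largest log2 change. Comp, cartilage oligomeric matrix protein, which binds collagen fibrils, followed at -1.91 ± 0.51 (SE), or -1.07 with the median rescaling. Comp stood at 55.7 FPKM in vehicle library 4, inside the DT-061 range of 19.2 to 58.6 FPKM, and at 197.0 to 221.2 in the other vehicle libraries. The thrombospondin gene Thbs4 fell by 1.16, from 2.46 ± 1.55 to 0.446 ± 0.162 FPKM, with a change of -0.25 that did not pass with quantile normalization. With the median rescaling the change of Thbs4 was -0.73. The gene of the collagen-binding proteoglycan lumican, Lum, fell by 0.79, and with the median rescaling its change was 0.05. The 4 that rose were Ecm2, by 0.62, Ogn, by 0.54, Smoc1, by 0.50, and the integrin gene Itga10, by 0.45. Ogn, which encodes the small proteoglycan osteoglycin, went from 106.6 ± 25.7 FPKM with vehicle to 152.0 ± 6.22 (SD, n = 4). The groups overlapped in Itga10 and not in the other genes that rose. Of 34 TGF-β ligands, receptors and targets, 2 were in the table and both rose. Tgfb1i1, a focal adhesion cofactor known as Hic-5, rose by 0.60. Bambi, a decoy receptor of the TGF-β family, rose by 0.33, but its call ended when library 1 or 4 of the DT-061 group, or library 1 or 2 of the vehicle group, was left out, at limma adjusted p of 0.068 to 0.094. With the median rescaling, the changes of Adamtsl5, Itga8, Itgb3, Tgm2, Tgfb1i1 and Bambi were larger, from 1.03 for Bambi upward.

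Markers of other cells that were in the table moved with the treatment too. The table holds only genes chosen as significant, of which 95.4% were called, with 30.4% rising and 65.0% falling. A called marker in this and the next paragraph is therefore no result in itself, and listed markers outside the table were not analysed. In a bulk sample, fewer cells of a type and less RNA per cell cannot be told apart. All 19 contractile smooth muscle genes in the table rose, with a mean log2(FPKM + 1) of 8.84 to 9.26 with DT-061 and 8.04 to 8.52 with vehicle, and DT-061 library 3 was the highest. Among 28 activated fibroblast markers, 11 were in the table. Of these 10 fell and 1, the actin gene Acta2, rose. Without Cthrc1, the mean level of the remaining 10 was 2.98 to 3.87 with DT-061 and 4.33 to 5.25 with vehicle. Comp and Thbs4 are in this list as well. The summed level of the 10, Acta2 included, was 6335 to 9070 and 4155 to 6675 FPKM. Of 31 fibroblast markers, 6 were in the table with 5 falling and 1, Gsn, rising. Their mean log2(FPKM + 1) was 6.70 to 7.37 with DT-061 and 7.68 to 8.18 with vehicle. Their summed level, to which Gsn contributed a mean of 810.7 FPKM with DT-061 and 558.0 with vehicle, was 1334 to 1462 and 1414 to 2050 FPKM. Proliferation markers had 12 of 30 genes in the table, which all fell. The part of these shifts in the changes of Thsd4, Col27a1 and Cthrc1 was not tested.

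Fbn2 and Col11a1 were low in vehicle library 4, and so were the immune markers. This was not particular to immune markers. By mean log2(FPKM + 1), vehicle library 4 was also the lowest vehicle library for fibroblast, activated fibroblast, chondrocyte, endothelial and adipocyte markers. It was not the lowest for contractile smooth muscle or proliferation markers. Vehicle library 1 had the highest sums of the immune markers below, but not the highest Fbn2 or Col11a1. T and NK cell markers, with 18 of 25 in the table of which 17 fell, summed to 4.21 to 11.2 FPKM with DT-061. In vehicle libraries 1 to 4 they summed to 102.4, 34.9, 47.3 and 9.36 FPKM. B and plasma cell markers, with 6 of 19 in the table that all fell, summed to 73.8 to 142.4 FPKM with DT-061 and to 5639, 1284, 2292 and 243.6 FPKM in vehicle libraries 1 to 4. The 6 of 26 monocyte and macrophage markers in the table, which all fell, summed to 17.6 to 87.0 FPKM with DT-061 and 97.9 to 411.6 with vehicle, again lowest in vehicle library 4. Of these markers, only the NK receptor gene Klrk1 was listed at 0, in 1 DT-061 library. Of the 25 listed chondrocyte markers, 4 were in the table. They were Col11a1, Comp and Prg4, which fell, and Cytl1, which rose. Without Col11a1 their mean log2(FPKM + 1) was 4.75 to 5.37 with DT-061 and 5.61 to 6.38 with vehicle. Their sums, in which Cytl1 rose from 64.9 ± 10.2 FPKM to 142.2 ± 74.8 (SD, n = 4), overlapped, at 152.3 to 275.7 FPKM in the DT-061 libraries and 156.6 to 308.4 FPKM in the vehicle libraries. For Cthrc1 the change was -2.15 with vehicle library 4 in the group and -2.13 without it. The part of these cells in the levels of Fbn2, Col11a1 and Cthrc1 was not tested.

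**Figure D4:**
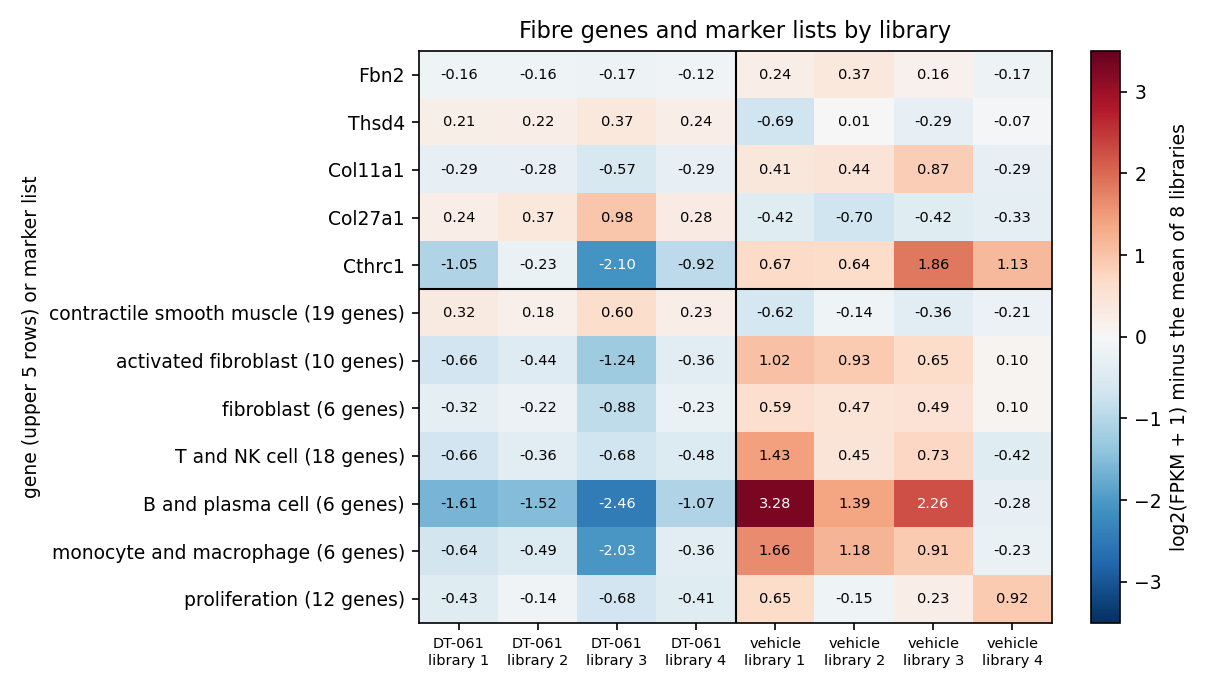
Each cell gives log2(FPKM + 1) of a gene (upper 5 rows), or the mean over a marker list, minus the mean of the 8 libraries, with libraries in columns and colour for the same number. Vehicle library 4 is at -0.17 for Fbn2 and -0.29 for Col11a1, near the DT-061 libraries, and at 1.13 for Cthrc1. DT-061 library 3 is lowest for Cthrc1, at -2.10, and highest for Col27a1, at 0.98.

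Likeness between genes was measured as Pearson's r of their deviations from the group means of log2(FPKM + 1) over the 8 libraries, so that the treatment difference does not enter. It is a description, and all genes of a library share its depth and scaling. Thsd4 was most like Sema3f (r = 0.997), Flot2 (0.966) and Ppp1r14a (0.965), which all rose. The call of Flot2 ended with quantile normalization (limma adjusted p = 0.056). That of Ppp1r14a ended without DT-061 library 3 (limma adjusted p = 0.051). Col27a1 was most like Rab11fip3 (r = 0.978), Ppm1e (0.951) and Syne2 (0.949). Rab11fip3 and Syne2 rose, and Ppm1e had a change of 0.54 that did not pass (limma adjusted p = 0.053). The calls of Rab11fip3 and Syne2 ended whichever library was left out.

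Cthrc1 was most like Mcf2l (r = 0.939), Srpx2 (0.905) and Bzw1 (0.899), which all fell. Srpx2 and Mcf2l had no call with the median rescaling or with quantile normalization. Bzw1 turned to 0.39 with the median rescaling only, and was at -0.37 with quantile normalization (limma adjusted p = 0.037). Fbn2 was most like B2m (r = 0.965), Igkv9-120 (0.939) and Gpm6b (0.938). B2m fell, but its change was -0.08 with the median rescaling (limma adjusted p = 0.79). It kept its call with quantile normalization. Col11a1 was most like Igkv10-94 (r = 0.957), another Igkv gene (0.953) and N4bp3 (0.936). The Igkv genes are immunoglobulin variable genes with near-identical copies, so their single values are uncertain. Igkv9-120 and the unnamed Igkv gene were listed at 0 in all DT-061 libraries, and Igkv10-94 in all but 1 of them. These 3 genes passed the minimum mean level through the vehicle libraries, and their r rests on those libraries. Relative to its mean over all libraries, log2(FPKM + 1) of Fbn2 was -0.17 to -0.12 with DT-061 and -0.17 to 0.37 with vehicle. The r of Fbn2 with B2m and Gpm6b thus also rests mainly on the vehicle libraries. Gpm6b and N4bp3 turned to 0.042 and 0.23 with quantile normalization. Among the 5 fibre genes themselves, Fbn2 and Col11a1 had the highest r of the 10 combinations, at 0.69, and Col27a1 and Cthrc1 the lowest, at -0.48.

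Promoter windows of RefSeq (GRCm38.p6) were at hand for 3 of the 5 genes, and not for Fbn2 or Cthrc1. They are shown because Thsd4 and Col27a1 rose while Col11a1 fell. Each is the 250 bases before a RefSeq transcription start, 5′ to 3′ on the gene's strand. The motifs searched on both strands were the CArG box of serum response factor, TATAAA (the TATA box), CAGACA (a SMAD element), TGANTCA (the AP-1 site), GGGCGG (the GC box), CCAAT (the CCAAT box), TGGGAA (the core RBPJ site) and ACAAAG (a SOX core). Matches are in capitals, and no matches overlapped each other. The windows are chr9:60511036-60511285 (minus strand) for Thsd4, chr4:63215162-63215411 (plus strand) for Col27a1 and chr3:114030290-114030539 (plus strand) for Col11a1.
Thsd4: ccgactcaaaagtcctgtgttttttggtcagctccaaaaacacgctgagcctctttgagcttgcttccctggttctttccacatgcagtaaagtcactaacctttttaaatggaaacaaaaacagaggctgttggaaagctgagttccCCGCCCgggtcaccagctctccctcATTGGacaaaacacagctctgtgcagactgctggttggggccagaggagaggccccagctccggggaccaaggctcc
Col27a1: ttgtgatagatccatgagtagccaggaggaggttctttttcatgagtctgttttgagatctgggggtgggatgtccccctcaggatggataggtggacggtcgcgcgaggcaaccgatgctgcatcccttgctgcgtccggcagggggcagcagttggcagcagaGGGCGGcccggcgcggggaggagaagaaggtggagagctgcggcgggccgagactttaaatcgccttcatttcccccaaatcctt
Col11a1: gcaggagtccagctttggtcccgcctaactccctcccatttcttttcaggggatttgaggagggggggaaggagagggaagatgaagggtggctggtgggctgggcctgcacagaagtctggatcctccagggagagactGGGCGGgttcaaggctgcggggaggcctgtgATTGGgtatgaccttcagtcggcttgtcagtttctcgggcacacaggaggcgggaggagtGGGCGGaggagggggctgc

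GGGCGG, the GC box, matched 1 time in the windows of Thsd4 (102 bases upstream of the start) and Col27a1 (85 bases upstream) and 2 times in that of Col11a1, and is in 32.7% of 32851 such windows. CCAAT matched 1 time in Thsd4 and Col11a1, at 77 and 79 bases upstream, and not in Col27a1, and is in 33.8% of windows. No CArG box matched in the 3 windows, and 1.5% of all windows hold 1. No match was found for TATAAA (in 12.4% of all windows), CAGACA (17.1%), TGANTCA (6.7%), TGGGAA (21.6%) or ACAAAG (16.5%). A second Thsd4 window held no match to any of the 8 motifs. The windows of Thsd4 and Col27a1 lie inside the GENCODE spans of these genes, since RefSeq starts differ from the outermost GENCODE start. These matches describe the letters of the windows only.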

How the data were processed

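Poly-A RNA of 8 ascending aorta libraries was sequenced in pairs on a NovaSeq instrument, according to the protocols in the labels. Per the submitters' processing notes, featureCounts 1.5.0-p3, StringTie 1.3.3b and HISAT2 2.0.5 were run on build mm10, and the step of each tool is not given. The deposited values are FPKM made by the authors. No source used here names the tool and threshold that chose the significant genes.

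The members and all gene lists were chosen with earlier results of these data known. Ensembl identifiers were matched to symbols for 1328 of 1329 genes. limma 3.58.1 in R 4.3.3, with trend and robust options, was fitted to log2(FPKM + 1) of all genes with treatment as the only term. P-values were adjusted by Benjamini-Hochberg over 1329 genes, with a threshold of 0.05. The fit was tested on simulated data. Rose and fell refer to that threshold, fold changes are ratios of mean FPKM, and values after fell by or rose by are log2 changes.

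Library depth was the number of fragments that made low FPKM values, multiplied by exonic length, whole to within 0.03. It used 37 to 67 values per library, from genes already whole in at least 3 other libraries at a first estimate of depth. Of these values 91.9% to 100% were whole, so this share is not that of all low values. For Fbn2 and Col11a1 the gene length was fitted likewise. Named genes were the 5 members, all list genes in the table where a matrix list had at most 5, otherwise its 4 largest changes with a mean FPKM of at least 1, and, under the same minimum, the 3 genes most like each member. Acta2, Gsn, Klrk1, Prg4, Cytl1, Ecm2, Ogn, Smoc1 and Itga10 were named after their values were seen. The fit was repeated with median rescaling, with quantile normalization, with a replicate block, without trend and robust options, with libraries left out, with a filter at a mean FPKM of 1, and with 0.1 as pseudocount.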

Additional observations from a re-analysis of the deposited data

Results flagged for a closer look

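Some single libraries lay far from the other 3 of their group, by a gap to the nearest that exceeded Dixon's 95% critical value. Of 60 groups of 4, those with all values at 0 could not be examined. Chance alone flags about 1 in 20 of the rest. DT-061 library 3 accounted for most of them. It had 67.3 FPKM of Thsd4 against 60.5 to 61.6 in the other DT-061 libraries, 0.0449 FPKM of Col11a1 against 0.263 to 0.275, and 18.4 FPKM of Col27a1 against 10.6 to 11.7. The same library had 3.82 FPKM of Ppm1e against at most 1.61, 20.6 FPKM of Rab11fip3 against 15.2 to 16.0, and 8.30 FPKM of Syne2 against 6.59 to 6.86. These 3 genes were picked for their likeness to Col27a1, so they do not add to it. Vehicle library 4 had 55.7 FPKM of Comp against 197.0 to 221.2 in the other vehicle libraries. DT-061 library 1 had 0.401 FPKM of Igkv10-94, which was listed at 0 in the other DT-061 libraries. Any value above 0 would have been flagged there, so this flag is no result.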

How the results depend on the processing

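Cthrc1 and Col27a1 kept their direction and call under every alternative run. Thsd4 kept its direction under all of them and its call under all but quantile normalization, at 0.54. Fbn2 was weaker with the median rescaling, at -0.19 (limma adjusted p = 0.077), and turned to 0.079 with quantile normalization, where Col11a1 was at -0.033. The minimum mean FPKM of 1 removed Fbn2 and Col11a1, so it gave no value for them. With 1 library left out, the changes ran from -0.41 to -0.23 for Fbn2, -0.93 to -0.55 for Col11a1, 0.38 to 0.61 for Thsd4, 0.76 to 1.01 for Col27a1 and -2.43 to -1.81 for Cthrc1. The number of genes that rose ran from 254 (without vehicle library 3) to 351 and that of genes that fell from 652 to 881, against 404 and 864 with all libraries. Genes that fell numbered 301 with the median rescaling and 209 with quantile normalization, and rises then made up 59.0% and 65.3% of calls, against 31.9% before. With DT-061 library 3 and vehicle library 4 both left out, all 5 genes kept their calls. Vehicle library 4 lay inside the DT-061 range for Fbn2 and Col11a1. Leaving it out therefore favours the calls of these genes and is no test of them. The replicate numbers of the labels were not taken to pair the samples in the main fit. Same-numbered libraries had correlations of their deviations of -0.47 to 0.18, and not every library correlated best with its own number. With so few libraries in each group, these correlations cannot show whether the samples were paired. With the replicate block, 204 genes rose and 630 fell, and limma adjusted p was 0.059 for Fbn2 (-0.31) and 0.051 for Col11a1 (-0.72). It was 0.062 for Tgm2, 0.053 for Lum, 0.086 for Bambi, and 0.051 to 0.101 for Flot2, Mcf2l, N4bp3, Rab11fip3 and Syne2. Among the other named genes, Bzw1 turned to 0.39 and Lum to 0.05 with the median rescaling, and Gpm6b to 0.042 and N4bp3 to 0.23 with quantile normalization. Depth limits Fbn2 and Col11a1 most, with as few as 3 and 5 fragments in a library.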
